A study of Drosophila melanogaster with 3 samples.

Results

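Peaks of Mirror binding that lie inside introns but close to a promoter were examined in Drosophila melanogaster embryos. They were taken from a reproducibility-filtered list of chromatin immunoprecipitation sequencing (ChIP-seq) peaks, called with the irreproducible discovery rate (IDR) procedure. A peak was a member when its summit, the position of its highest signal, lay inside a protein-coding gene, overlapped no exon of a protein-coding transcript, and lay more than 500 and at most 5000 bp from the nearest protein-coding transcription start site (TSS). The rule selected 1780 peaks, 28.7% of the list, and left 4421 others. Beyond the IDR list itself, position alone chose them, so their signal, recurrence, sequence content and neighbouring peaks were not used. The 3 samples were biological replicates of 1 group, whole embryos of mixed sex aged 4 to 20 h that carry mirr with GFP fused to the C terminus of its product, and chromatin was immunoprecipitated through the GFP. There was no untagged, untreated or mutant group, and embryos of this age hold many cell types, so no peak can be placed in a cell type. The line's genotype beyond the tag was not given in the sources used here.

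Mirror, Araucan and Caupolican are the homeodomain transcription factors of the Iroquois complex. They are known for dividing the eye, the notum and the egg chamber's follicle cells into dorsal and ventral or central and lateral territories. Iroquois proteins belong to the TALE class of homeodomains and are known to bind a palindromic core, ACA and TGT separated by 2 bases, searched here as ACANNTGT. The first introns of fly genes are often long and are known to hold enhancers, and many fly genes carry alternative promoters inside the gene, so an intronic position near a TSS can be downstream of the first promoter or beside an internal one. GATA factors, zinc-finger proteins named for the letters they bind, act in the fly gut, fat body, blood, amnioserosa and dorsal ectoderm.

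Of the sequences searched at the summits, the Iroquois sequence is shown because Mirror is an Iroquois protein, and the GATA sequences because they were the most frequent at members. Each line gives the plus strand of dm6 (release 6 of the genome) from 50 bp before to 50 bp after a summit, 5′ to 3′, all in introns of the named gene. The first 3 are the strongest members with ACANNTGT in this window, on the arms from which sequence is printed here, with the match in capitals. The match centre lay 12.5 bp from the summit in Rtnl1, which encodes a reticulon of the endoplasmic reticulum, 6.5 bp in Glut4EF and 15.5 bp in Tre1, a G-protein-coupled receptor gene of germ cell migration. Their signals were 1217, 1129 and 1100.
Rtnl1 chr2L:4997855-4997955 (+): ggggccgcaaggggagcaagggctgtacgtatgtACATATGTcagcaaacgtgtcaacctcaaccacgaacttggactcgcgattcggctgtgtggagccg
Glut4EF chr3R:9932547-9932647 (+): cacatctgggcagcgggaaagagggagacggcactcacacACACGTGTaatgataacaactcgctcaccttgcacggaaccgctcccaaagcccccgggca
Tre1 chrX:5678015-5678115 (+): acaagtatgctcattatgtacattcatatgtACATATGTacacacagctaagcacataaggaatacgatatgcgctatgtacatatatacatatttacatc
The other 3 are chosen in the same way for AGATAAG or TGATAAG in the window, again in capitals, where CTTATCA is TGATAAG read on the opposite strand. The match centre lay 21 bp from the summit in CG5853, 32 bp in raw, an antagonist of Jun kinase signalling in dorsal closure, and 29 bp in CG13784. Their signals were 1350, 1117 and 1061.
CG5853 chr2L:9943677-9943777 (+): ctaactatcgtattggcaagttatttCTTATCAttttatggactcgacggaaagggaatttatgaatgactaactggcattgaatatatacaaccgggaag
raw chr2L:8738448-8738548 (+): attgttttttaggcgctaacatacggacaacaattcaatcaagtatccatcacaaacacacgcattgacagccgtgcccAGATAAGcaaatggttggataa
CG13784 chr2L:7215052-7215152 (+): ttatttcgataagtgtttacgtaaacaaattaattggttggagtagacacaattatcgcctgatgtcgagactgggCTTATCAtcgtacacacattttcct

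Several properties of the lists bear on all values. The signal of a peak is the authors' deposited value without a stated scale, so it was used only to rank and describe peaks. Read numbers were not given, so depth is unknown and no counting interval could be set. The IDR peaks were the strongest of 30000 regions called on the pooled replicates, and all lists share 1 control. Peaks are not biological replicates, and p-values describe these lists, not the variation between embryo collections. For that variation, the same position rule was applied to the top regions of each replicate, meaning as many of its strongest regions as there are IDR peaks. It selected 1603, 1799 and 1903 regions in replicates 1, 2 and 3, or 28.5% ± 2.46 (SD, n = 3) of each list. In the same lists, promoter regions within 500 bp of a TSS made up 51.0%, 42.4% and 38.8%, so replicate 1 held the most promoter regions and the fewest near-promoter intronic ones. Members had signals from 191 to 3915 with a median of 300, against medians of 279 for the 647 intronic IDR peaks farther than 5000 bp from a TSS and 296 for the 2788 IDR peaks within 500 bp of one. Their median width was 396 bp (99 to 998 bp), and 844 members had exactly that width. There were 28 members that repeated the interval of another member with a different summit.

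Intronic Mirror summits were densest next to the start sites and thinned with distance. Introns held 121 IDR summits per Mb more than 500 and up to 1000 bp from a TSS, 97.7 between there and 1500 bp and 89.6 between 1500 and 2000 bp. The density was 45.6 per Mb between 3500 and 4000 bp, 52.3 between 4500 and 5000 bp and 6.40 beyond 20000 bp. Over the whole range of the rule it was 79.4 per Mb of intron, and beyond it 21.4. The replicate lists gave 78.9 ± 6.79 and 22.5 ± 3.29 (SD, n = 3), so the near and far values did not overlap between replicates. By distance, 481 members (27.0%) lay up to 1000 bp from the TSS, 599 (33.7%) between 1000 and 2000 bp and 700 (39.3%) between 2000 and 5000 bp, with a median of 1652.5 bp. No step marked either bound of the rule. There were 92 intronic summits in the last 100 bp below the lower bound and 91 in the first 100 bp above it, and 12 in the last 100 bp below the upper bound and 14 in the next 100 bp.

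**Figure D1:**
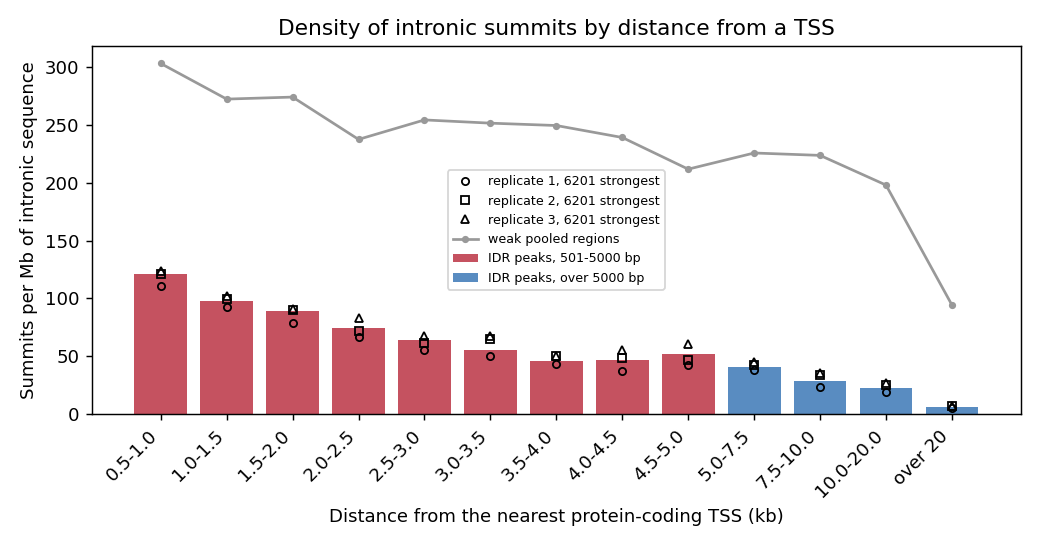
Intronic summits per Mb of intronic sequence (y axis) by distance from the nearest protein-coding TSS in kb (x axis, bins of unequal width) for IDR peaks (bars), the top regions of each replicate (open symbols) and weak pooled regions that overlap no IDR peak (grey line). The bars fall from 121 to 6.40 per Mb, while the weak regions fall from 303 to 94.4.

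Weak regions thinned less. These are the pooled regions that overlap no IDR peak, and 5869 of them met the same position rule. Among intronic summits, 73.3% of IDR peaks (1780 of 2427) but 53.2% of weak regions (5869 of 11036) lay within 5000 bp of a TSS (log2 odds ratio 1.28 with SE 0.07, Fisher's exact p = 1.19e-76). The replicate lists set against their own weak regions gave log2 odds ratios of 1.21, 1.15 and 1.15. The difference therefore had the same direction and a similar size in each of the 3 replicates.

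Most members lay downstream of a promoter of the gene that contains them, and most in the first intron of at least 1 of its transcripts. The nearest TSS belonged to the containing gene and lay upstream of the summit for 1170 members (65.7%). For 399 (22.4%) the summit lay upstream of the nearest TSS of the containing gene, beside a promoter internal to it, and for 211 (11.9%) the nearest TSS belonged to another gene. The median distance was 1665.5, 1356 and 2216 bp in these groups, and the median signal 299, 304 and 298. Weak regions at the same positions were split 60.3%, 20.4% and 19.3%.

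The first intron of at least 1 transcript held 1396 members (78.4%), against 69.6% of the weak regions (log2 odds ratio 0.67 with SE 0.09, Fisher's exact p = 2.11e-13). The replicate lists gave 0.55, 0.63 and 0.64. Where the first intron of every transcript with an intron there was required, the shares were 49.8% and 45.3% and the log2 odds ratio fell to 0.26. Members lay somewhat closer to a TSS than weak regions, and first introns are the ones next to promoters, so the shares are also given by distance. They were 84.2% and 79.6% up to 1000 bp, 80.5% and 73.8% between 1000 and 2000 bp, and 72.7% and 63.0% between 2000 and 5000 bp, with members above weak regions in each band. For 271 members (15.2%) the earliest intron was intron 2 of its transcript and for 61 (3.43%) intron 3. The shortest intron around a member had a median length of 4909 bp. Start sites of non-coding genes, which the rule did not consider, lay within 500 bp of 56 members (3.15%), which were annotated as ncRNA for 47 members, snoRNA for 5 and tRNA for 4.

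Members also lay close to other Mirror peaks. The next IDR summit was a median of 1452 bp away, and 600 members (33.7%) had one within 1000 bp. IDR peaks that share an interval counted each other's summit here. The share was 27.4% for far intronic peaks. Promoter peaks were counted as neighbours, and by the distance rule none can lie within 1000 bp of a far intronic peak. The 27.4% therefore cannot be set against the members. The share was 15.4% for weak regions, but these overlap no IDR peak by definition. Their closest neighbours were thus left out, and the 15.4% cannot be set against the members. These shares are a description that was not tested. The nearest TSS itself carried an IDR summit within 500 bp for 808 members (45.4%), and 972 members (54.6%) stood beside a promoter without one. The share was 41.3% for far intronic peaks (267 of 647), and the difference did not pass the test (log2 odds ratio 0.24 with SE 0.13, Fisher's exact p = 0.0717). It was 0.16, 0.27 and 0.16 in the lists of replicates 1, 2 and 3, of which replicate 2 passed (Fisher's exact p = 0.0373). With a promoter window of 250 bp the log2 odds ratio was -0.05, so no direction is given. With 1000 bp it was 0.34 (Fisher's exact p = 0.0157), but the 481 members up to 1000 bp from a TSS then counted their own summit. Far intronic peaks cannot do so, and no conclusion is drawn from that window.

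The replicates recalled most members, but the IDR list was itself derived from the replicate lists and the pooled list. The shares and summit distances in this paragraph are therefore not an independent check of the members. The top regions of all 3 replicates overlapped 1083 members (60.8%), beside 56.1% of all IDR peaks. Those of exactly 2 replicates overlapped 494 members, those of 1 replicate 196 and those of none 7. By replicate the share was 78.7%, 81.7% and 88.7% in replicates 1, 2 and 3 (83.0% ± 5.16, SD, n = 3). Somewhere in the full replicate lists of 30000 regions, 1765, 1754 and 1755 members had a region, whose summit lay a median of 19, 16 and 16 bp from the member's. The ranks of members found in both full lists correlated with Spearman's rho 0.60 between replicates 1 and 2 (1744 members), 0.61 for 1 and 3 (1740) and 0.54 for 2 and 3 (1729), a description of members that share their libraries and control.

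Members recurred in all 3 replicates more often than far intronic peaks (60.8% against 54.6%, log2 odds ratio 0.37 with SE 0.13, Fisher's exact adjusted p = 0.00585 over 2 comparators). They also did so more often than promoter peaks (53.0%, log2 odds ratio 0.46 with SE 0.09, Fisher's exact adjusted p = 4.03e-07). Each call was lost when either of 2 replicates was left out. The far intronic share was 73.7%, 79.3% and 90.0% in replicates 1, 2 and 3, and that comparison was lost without replicate 1 (0.12) or replicate 2 (0.18) and held without replicate 3 (0.49). The promoter share was 88.9%, 74.6% and 76.1%, above the members in replicate 1 and below them in the other two, and the call was lost without replicate 2 (0.13) or replicate 3 (0.02) and held without replicate 1 (0.94). Among the 3100 strongest IDR peaks the log2 odds ratio against far intronic peaks was 0.01, and with 50% reciprocal overlap it was 0.12. Recurrence moved with strength, with a median signal of 384 for members in all 3 replicates and 225 for the others. The median rank in the IDR list was 2998.5 for members, 3426 for far intronic peaks and 3079 for promoter peaks. The part of strength in these differences was not tested.

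Members were spread through the strength ranking of the IDR list. They made up 6 of its 25 strongest peaks, 28 of the first 100, 296 of the first 1000 and 919 of the first 3100. The strongest lay in CG11050 (chromosome 2L, 6612364 to 6612993), 1024 bp downstream of its TSS in a 140-bp second intron, with a signal of 3915 and rank 4 in the list. Its ranks in replicates 1, 2 and 3 were 1, 9 and 7. The next lay in the first intron of CG9663 (2L, 3301840 to 3302572), 965 bp downstream of the TSS, signal 3005, and ranked 5, 18 and 6 in the replicates. The third lay 810 bp upstream of an internal TSS of CG9837 (3R, 8810414 to 8810867), with a signal of 2364, and ranked 33, 4 and 14 in the replicates. It held both ACANNTGT and a GATA sequence. These 3 peaks were near the top of every replicate list.

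The genes around the next members included regulators of signalling and chromatin, although the share of such genes among all hosts was not determined. Lk6, a kinase that phosphorylates the translation factor eIF4E, held a peak with a signal of 2226, 983 bp upstream of an internal TSS. The gene ush, whose product is a cofactor of GATA factors, held one with a signal of 2203, although the nearest TSS, at 1373 bp, was that of cbt. Tlk, which encodes the Tousled-like kinase of chromatin assembly, held peaks with signals of 1836 and 1735. Trl encodes GAGA factor, a chromatin protein that binds GA repeats, and held a peak with a signal of 1362 that ranked 26 in replicate 1, 1281 in replicate 2 and 123 in replicate 3. Feedback inhibitors were present as well. A summit lay 568 bp upstream of an internal TSS of sty, the receptor tyrosine kinase inhibitor Sprouty (signal 1328), and another lay 3418 bp downstream of a TSS of Socs36E, a JAK/STAT inhibitor (signal 1306).

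The remaining hosts among the 25 strongest members were norpA, the phospholipase C of phototransduction, Eglp4, a glycerol channel, NFAT, the ubiquitin ligase gene Nedd4, Xrp1, a stress-response bZIP factor, and chif, a Dbf4 homologue. The others were for, a cGMP-dependent kinase, GATAd, a GATA factor, Tab2, an adaptor of the kinase Tak1, and CG32772, elm, CG3726, CG5853, Rtnl1 and MESR3. All 25 recurred among the top regions in every replicate, but they were chosen by signal pooled over the same replicates, so this is not independent of the choice. A first intron held 21 of them, beside 78.4% of all members. The nearest TSS carried an IDR summit for 10, beside 45.4% of all members. A GATA sequence lay within 100 bp of 8 summits, GAGAGAG of 5 and ACANNTGT of 3, beside 27.0%, 7.42% and 14.6% of all members. On chromosome X lay 6 of the 25, and 286 of all 1780 members. Ranks differed most in Trl, whose 3 ranks are given above.

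**Figure D2:**
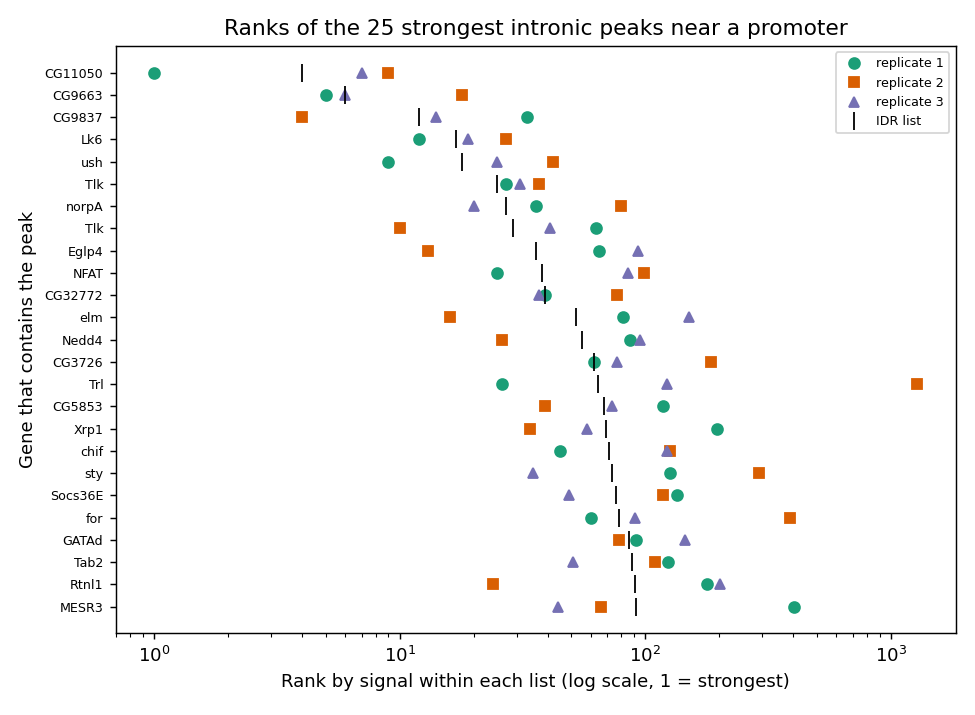
Rank by signal within each list (x axis, log scale, 1 is the strongest) of the 25 strongest members, named by the gene that contains them (y axis), in the 3 replicate lists (coloured symbols) and the IDR list (black ticks). The farthest point is Trl at 1281 in replicate 2.

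GATA sequences were the most frequent of the 16 short sequences searched within 100 bp of member summits, on both strands. AGATAAG or TGATAAG stood at 481 of 1780 members (27.0%), beside 20.1% of all IDR peaks. The share was 26.4%, 27.1% and 24.9% in the same positions of replicates 1, 2 and 3. Windows of the same length (201 bp) centred 1000 bp to each side of member summits held one in 8.15% of cases, and 6.34% of 91633 such windows that tile the introns at the same distances did. The ratio of summit to flank was 3.32, and 3.24 ± 0.19 (SD, n = 3) in the replicate lists. The nearest match within the 100-bp search window lay a median of 36 bp from the summit. The median was 39.5 bp at far intronic peaks, 42 bp at promoter peaks and 36 bp at weak regions in the same positions. The distance thus did not set members apart from weak regions.

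The GATA share at members exceeded that at each of 3 comparators. It was 20.1% at far intronic peaks (log2 odds ratio 0.56 with SE 0.16, Fisher's exact adjusted p = 0.00326 over 48 tests), 16.3% at promoter peaks (0.93 with SE 0.11, Fisher's exact adjusted p = 6.13e-17) and 10.6% at weak regions in the same positions (1.65 with SE 0.10, Fisher's exact adjusted p = 4.24e-58). All 3 replicate lists passed each of these tests, with 0.64, 0.72 and 0.44 against far intronic regions. The call against far intronic peaks was lost among the 3100 strongest IDR peaks (0.48 with SE 0.23, Fisher's exact adjusted p = 0.176).

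The share followed the strength of the region. Among near-promoter intronic regions of the pooled list it was 30.9% up to rank 2000, 26.6% from there to rank 4000, 23.7% from there to the end of the IDR peaks, 18.4% from there to rank 10000 and 6.81% from rank 20000 to 30000. In the replicate lists it was 29.3% ± 2.49 up to rank 2000 and 7.94% ± 0.66 beyond rank 20000 (SD, n = 3), so the ends of the ranking did not overlap. The share changed little with distance, at 28.1%, 27.7% and 25.7% in the bands up to 1000, 2000 and 5000 bp. It was 27.9% downstream of a TSS of the containing gene, 25.8% upstream of one and 24.6% where the nearest TSS belonged to another gene.

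Base composition moved with these comparisons, and the GATA sequences are rich in A and T. Median GC content within 100 bp of the summit was 42.8% at members, 43.3% at far intronic peaks, 43.8% at promoter peaks and 44.3% at weak regions. Members had the highest GATA share within each range of GC content. Below 40% GC it was 29.9% at members, 24.4% at far intronic peaks and 16.8% at both promoter peaks and weak regions. From 40% to 45% GC it was 30.2%, 26.8%, 21.5% and 11.4% in the same order, and at 45% GC or more 21.8%, 12.6%, 13.0% and 6.34%. These shares by GC range were not tested.

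**Figure D3:**
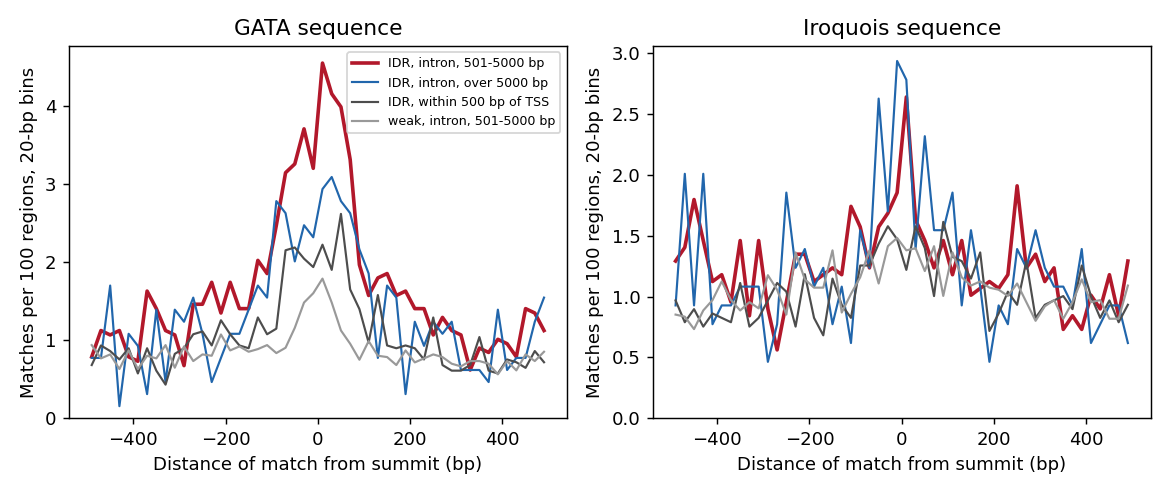
Matches to the GATA sequences (left) and the Iroquois sequence (right) per 100 regions in 20-bp bins (y axes, different scales) by distance from the summit in bp (x axes, plus strand to the right) at members (red), far intronic peaks (blue), promoter peaks (black) and weak near-promoter intronic regions (grey). The GATA profile of members has the highest centre, and the Iroquois profiles of members and far intronic peaks both have a narrow centre.

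The Iroquois sequence was less frequent than GATA sequences and separated members less. ACANNTGT stood at 259 members (14.6%), beside 13.4% of all IDR peaks. It stood at 9.13% of flanking windows and 8.66% of the tiled intronic windows. The ratio to the flanks was 1.59, and 1.56 ± 0.08 (SD, n = 3) in the replicate lists, where the share was 13.8%, 14.4% and 15.4%. The nearest match lay a median of 40.5 bp from the summit, beside 42.5 bp at far intronic peaks, promoter peaks and weak regions alike. Of the 259 members, 65 held the form ACATATGT, which contains the E-box CATATG searched separately.

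The share of members with ACANNTGT was above that of weak regions in the same positions (11.5%, log2 odds ratio 0.39 with SE 0.11, Fisher's exact adjusted p = 0.00335). It was also above that of promoter peaks (11.9%, 0.33 with SE 0.13, Fisher's exact adjusted p = 0.0448). Each call passed in replicates 2 and 3 but not in replicate 1 (log2 odds ratios 0.27 and 0.21), and was lost with a search window of 50 bp (Fisher's exact adjusted p = 0.0590 and 0.178) and among the 3100 strongest peaks. The call against promoter peaks was also lost for members more than 1000 bp from a TSS (Fisher's exact adjusted p = 0.104). Far intronic peaks held it in 16.8% of cases, and the difference from members did not pass (-0.25 with SE 0.18, Fisher's exact adjusted p = 0.477). Its share was not highest at the strongest regions. It was 13.7% up to rank 2000 of the pooled list, 15.0% from there to rank 4000, 15.0% from there to the end of the IDR peaks and 10.3% beyond rank 20000. Both kinds of sequence stood at 62 members (3.48%), 2.47% of far intronic peaks, 2.01% of promoter peaks and 1.18% of weak regions. GATA sequences stood at 23.9% of members with ACANNTGT and 27.5% of those without. At 506 members (28.4%) none of the 16 sequences was found, beside 32.0%, 30.5% and 36.7% of the same 3 comparators. These shares were not tested.

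Core promoter sequences were rarer at members than at promoter peaks. TATCGATA, the DNA replication-related element (DRE), stood at 9 members (0.506%) against 144 promoter peaks (5.16%; log2 odds ratio -3.42 with SE 0.50, Fisher's exact adjusted p = 4.25e-20). Motif 1, a core promoter element searched as GGTCACACT, stood at 1 member (0.0562%), in CG42327, against 84 promoter peaks (3.01%; -5.79 with SE 1.45, Fisher's exact adjusted p = 4.75e-16). The E-box CAGCTG was also less frequent at members than at promoter peaks (9.33% against 14.8%; -0.75 with SE 0.14, Fisher's exact adjusted p = 4.88e-07). In the other intronic regions the DRE stood at 0.341% of weak regions, 0.155% of far intronic peaks and 0.456% of tiled intronic windows. CAGCTG stood at 9.46% of weak regions and 8.50% of far intronic peaks, and no difference of these 3 sequences from either intronic comparator passed. The 3 calls against promoter peaks held in all 3 replicate lists and under every alternative run on the IDR list. For the DRE and Motif 1 this adds nothing to the position rule. The strongest member with the DRE lay 666 bp downstream of the TSS of Stt3A, an oligosaccharyltransferase gene.

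Of the remaining sequences, 5 passed a test against 1 comparator each. CACACACA stood at 11.7% of members and 8.61% of promoter peaks (log2 odds ratio 0.50 with SE 0.14, Fisher's exact adjusted p = 0.00335), and CATATG at 9.44% and 6.99% (0.47 with SE 0.16, Fisher's exact adjusted p = 0.0168). Among the 3100 strongest peaks, with fewer peaks tested, the log2 odds ratios were 0.51 and 0.58 and both calls were lost (Fisher's exact adjusted p = 0.0861 and 0.0636). The CACACACA call did not pass in replicate 3 (0.36), and the CATATG call was lost for members more than 1000 bp from a TSS (Fisher's exact adjusted p = 0.0795). GAGAGAG, a binding sequence of GAGA factor, stood at 7.42% of members and 4.92% of weak regions (0.63 with SE 0.16, Fisher's exact adjusted p = 0.000696). Its share was 10.2%, 8.01% and 5.00% in the 3 bands of increasing distance, and the call was lost when members had to lie more than 1000 bp from a TSS (Fisher's exact adjusted p = 0.0773). It did not pass in replicate 3 either (0.32). ATCAAAG, bound by the Wnt effector TCF, stood at 3.54% of members and 1.55% of far intronic peaks (1.22 with SE 0.50, Fisher's exact adjusted p = 0.0445). GTGGGAA, bound by the Notch effector Su(H), stood at 2.19% of members and 3.36% of weak regions (-0.63 with SE 0.26, Fisher's exact adjusted p = 0.0448). Neither of these last differences passed in any replicate list, and both were lost under most alternatives. Of the other sequences, the homeodomain core TAATTA stood at 10.8% of members and 13.0% of their flanks, and TGACAG, a TALE half-site, at 7.92% and 5.90%.

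**Figure D4:**
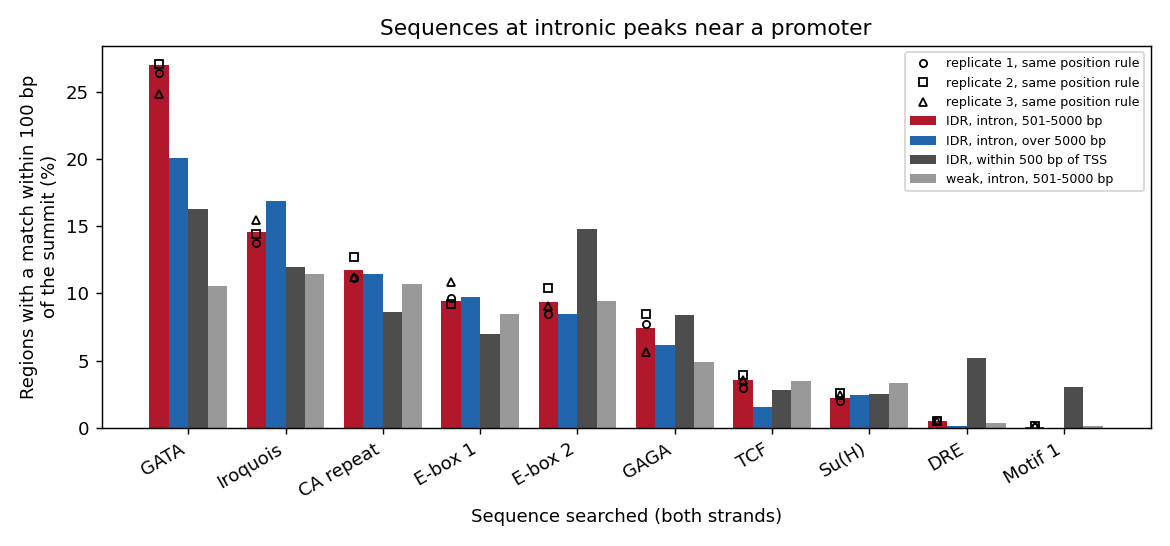
Share of regions with a match within 100 bp of the summit in percent (y axis) for 10 of the 16 sequences (x axis), at members (red), far intronic peaks (blue), promoter peaks (black) and weak near-promoter intronic regions (grey). Open symbols give near-promoter intronic regions of each replicate list. E-box 1 is the CATATG form and E-box 2 the form that is more frequent at promoter peaks. GATA has the highest red bar, at 27.0%, and DRE and Motif 1 reach 5.16% and 3.01% at promoter peaks but 0.506% and 0.0562% at members.

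Of 9232 protein-coding genes with intronic sequence at these distances, 1066 (11.5%) contained a member, assigning each to the gene with the nearest TSS where the summit lay in it and otherwise to the shortest gene around it. There were 674 genes with 1 member, 222 with 2 and 170 with 3 or more, and 27 had at least 5. Of the 1066, 756 also contained a region of the same kind in all 3 replicate lists. The amount of eligible intron moved with the share of hosts. Ranked by that length, the 2308 genes with the least held no host, the next 2308 had 0.823%, the next 12.9% and those with the most 32.5%. Density did not follow the same order, at 0, 31.1, 119.6 and 70.8 members per Mb of eligible intron.

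The 10 genes with the most members had much eligible intron, from 10282 bp in CG3764 to 47791 bp in Eip75B. The median over all genes was 465 bp. Eip75B, an ecdysone-induced nuclear receptor gene, held 13 members, and 11, 15 and 16 in replicates 1, 2 and 3. The gene shn, whose zinc-finger product acts in Dpp signalling, held 12, and 13, 17 and 11 in the replicates. SNF4Agamma, the gamma subunit of the energy sensor AMPK, held 12, and 9, 13 and 11. Tlk held 10 and Pdp1, a bZIP factor of the circadian clock and growth, also held 10. CG3764 and atos held 9 each, CHES-1-like, a forkhead factor gene, 8, and cnc, the fly counterpart of the oxidative stress regulator Nrf2, 7. Pde11, a cyclic nucleotide phosphodiesterase gene, also held 7, with 3, 6 and 9 in the replicates, and shared the tenth place with another gene. Per kb of eligible intron, CG3764 held the most of these 10 (0.875 members) and SNF4Agamma the fewest (0.267).

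**Figure D5:**
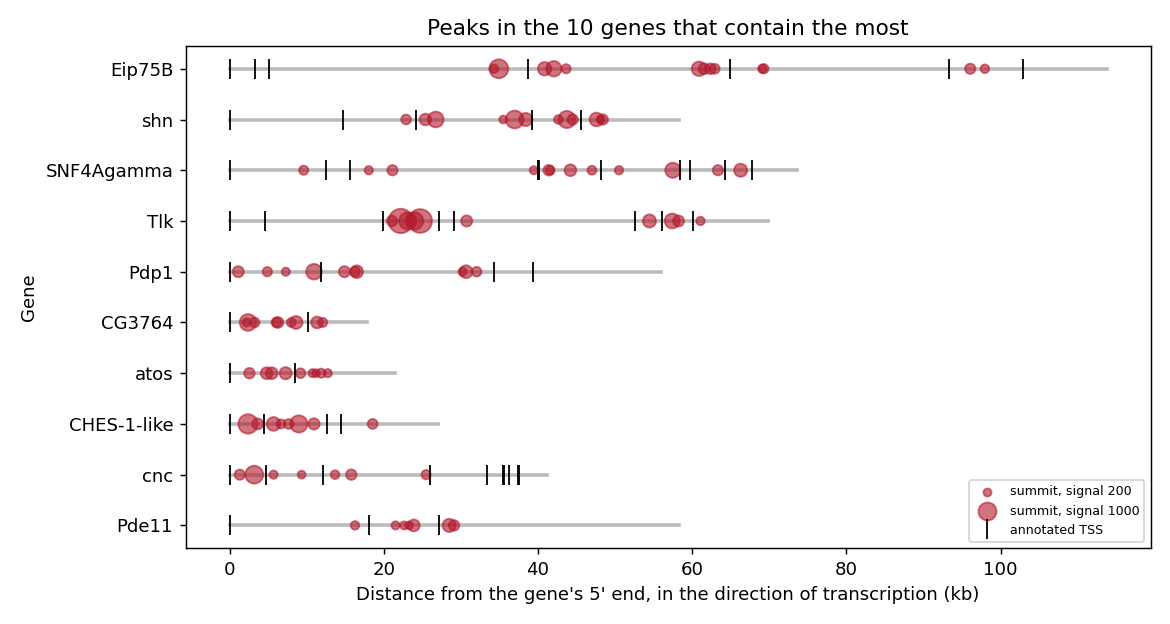
Position of member summits (red circles, area proportional to signal) and annotated TSSs (black ticks) along the 10 genes with the most members, in kb from the 5′ end of each gene in the direction of transcription (x axis). Grey lines span the gene. The summits lie in groups between and beside internal start sites, as in Eip75B with its 13 members.

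Within the Iroquois complex, 2 of 3 genes contained a member. All 3 members in mirr lay in its first intron of 2146 bp, on 3L. The first (12694957 to 12695258) lay 1461 bp downstream of the TSS, with a signal of 815, ranks between 119 and 888 in the replicates, and a GATA sequence. The others shared the interval 12695712 to 12696205, at 2262 and 2474 bp, with signals of 800 and 248. The tag is in mirr itself, so the number of copies of this DNA in the line bears on these values and was not tested. The member in ara lay 4475 bp downstream of its TSS with a signal of 264, and was among the top regions of 2 replicates. No member lay in caup.

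The other gene lists are given as counts of their genes that contain a member, beside 11.5% of all genes with eligible intron. These counts are descriptions, since listed developmental genes have longer introns than most. The median eligible length was 465 bp over all genes and 1916 bp or more in each of the signalling lists, and the 2308 genes with the most eligible intron had 32.5% hosts. Numbers in parentheses after a gene are the signal of its strongest member. A host contains the summit, but the nearest TSS can be that of another gene. For the strongest member it was that of CG7878 in puc, CatB in Hnf4, hog in NetB and CG9896 in twi. All genes together held 75.2 members per Mb, counting sequence once for each gene that contains it. In the Jun kinase and dorsal closure list 7 of 12 genes were hosts, with 131 members per Mb, and 61.1% ± 4.81 (SD, n = 3) were hosts in the replicate lists. They included raw (signal 1117), puc, the phosphatase that dampens Jun kinase (764), hep, its activating kinase (512), and zip, the myosin heavy chain (420), whereas bsk, the kinase itself, and msn had none.

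Insulin and growth signalling had 7 hosts of 17 genes and 19 members, or 234 per Mb. Its hosts included Lk6, InR, the insulin receptor gene (535), sima, the hypoxia factor gene (532), and S6k (390), and not Akt or chico. The Dpp list had 6 of 14 hosts and 19 members, of which 12 were in shn. The receptor gene tkv (581) and Dad, an inhibitor (409), also held members, and the list gave 33.3% ± 10.9 (SD, n = 3) in the replicates. The EGFR list had 8 of 21, at 36.5% ± 2.75, including sty, Raf (630), drk (467, nearest to a TSS of mars) and aop, the Yan repressor gene (462), and not Cbl or Dsor1. Ecdysone response genes and nuclear receptors had 6 of 19 and 23 members, with Eip75B, Hnf4 (782), Eip74EF (424) and Hr4 as the leading hosts.

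GATA factors and their cofactor ush had 3 hosts of 6 genes and 10 members, with peaks in ush, GATAd and GATAe (331) and none in grn or pnr. The strongest member in GATAd, with a signal of 1235, held a CA repeat and no GATA sequence within 100 bp. The JAK/STAT list had 3 of 9, namely Socs36E, Stat92E (694) and Ptp61F, in each replicate list as well. The Hippo list had 4 of 14, led by Tgi (504) and wts (293). The Hedgehog list had 3 of 11, with rdx (642), hh, the ligand gene (620), and ptc, its receptor gene (340). The Wingless list had 5 of 20, including the receptor gene fz2 (584) and Notum (472), and the Notch list 3 of 12, with mam (703) and numb (428). Tracheal and spalt genes had 3 of 8, led by pnt (432).

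The remaining lists ranged from no host to 7 hosts of 21 genes. Among appendage and eye factors, a field in which Iroquois genes are known to act, 2 of 21 genes contained a member, al (336) and nub, and not ap or bab1. That list had a median eligible length of 4263 bp and 14.1 members per Mb, and replicate shares of 4.76%, 14.3% and 14.3%. Axon guidance genes had 7 of 21, led by NetB (456) and Sema5c (433). Adhesion and planar polarity genes had 5 of 20, led by aPKC (705) and scrib (626). Mesoderm genes had 3 of 12, with Mef2 (830), twi and nau. Members per Mb were 53.4, 47.4 and 63.8 in these lists, below the 75.2 of all genes, although their host shares were above 11.5%. Proneural and neuroblast genes had 1 of 6, brat (509), and 85.7 members per Mb. Polycomb and trithorax group genes had 3 of 19, Trl, trx (567) and ph-p (422), with the same share in each replicate and 191 members per Mb. Cytosolic ribosomal protein genes had 0 of 50 and cuticle protein genes 0 of 35, with median eligible lengths of 282.5 and 396 bp. Chemoreceptor genes had 1 of 136, Ir68a (470), with a median of 172.5 bp.

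The chromosome arms differed in density. Eligible introns held 78.8 members per Mb on 2L, 91.6 on 2R, 80.8 on 3L, 86.5 on 3R and 63.6 on X. The X value was the lowest of these 5 arms in each replicate list as well, at 60.0, 60.7 and 69.2 per Mb. Chromosome 4, with 0.281 Mb of eligible intron, held 2 members. Embryos were of mixed sex, so the X was present in fewer copies than an autosome on average, and the part of copy number in this difference was not tested.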

How the data were processed

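ChIP-seq peak lists of 3 biological replicates of 1 group were used: 1 relaxed list per replicate, 1 on the pooled replicates and the IDR list. Their signal values were deposited by the authors without a stated scale; per the deposited file descriptions, peaks were called against a control alignment on dm6. Aligner, caller, IDR threshold and depth are not given in the sources used here. The free-text description of the samples names an input control, whereas title, assay and antibody fields name transcription factor ChIP. Embryo age comes from the source field, since the age field was garbled. Per the labels' protocols, chromatin was sonicated to 200 to 800 bp.

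Summits were placed on 13945 protein-coding genes with 19253 TSSs (Ensembl 115, BDGP6.54, arms identical to dm6) on 6 arms. No sequence from arm 2R is printed. Eligible intron, free of coding-transcript exons and at the distances of the rule, covered 22.4 Mb (16.8% of the arms). Recurrence meant an overlap of at least 1 bp with the top regions of a replicate, as many as there are IDR peaks. The 16 sequences were compared with 3 comparators by two-sided Fisher's exact tests (scipy 1.17.1, Python 3.11.15) with Benjamini-Hochberg adjustment over 48 tests, threshold 0.05; recurrence was adjusted over its comparators, and the remaining tests were not adjusted. Adjacent summits and members in 1 gene share sequence and are not independent. The tests were checked on simulated data.

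The symbols Dl, nct, Tor, fmi and calypso of the lists matched no gene. The members, the 22 gene lists, the sequences and the tests were chosen with earlier results of these data known. Shares by rank, GC content, distance band of first introns and tiled windows were added after the data were seen. Named genes are the hosts of the 25 strongest members, the 10 genes with most members, the Iroquois genes, up to 4 hosts and 2 other genes of each list, and the host of the strongest member with each called sequence. CG42327 and Stt3A come from the last part of this rule.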

Additional observations from a re-analysis of the deposited data

How the results depend on the processing

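The share of intronic summits near a promoter kept its direction and call under every alternative run, with log2 odds ratios from 1.14 to 1.45, and so did the first-intron share, which fell from 0.67 to 0.26 when the first intron of every transcript was required. GATA against promoter peaks and against weak regions, and the DRE, Motif 1 and CAGCTG against promoter peaks, also kept their calls throughout. For the DRE and Motif 1 the position rule builds that difference in. Recurrence against far intronic peaks was 0.118 with 50% reciprocal overlap, 0.0104 for the 3100 strongest IDR peaks and -0.68 with the whole relaxed lists (Fisher's exact adjusted p = 0.144); without single replicates it ranged from 0.12 to 0.49. Against promoter peaks that range was 0.0208 to 0.94. For the results that follow, a replicate was left out by averaging over the other replicate lists in place of the IDR list, so 2 choices changed at once. The peak at the nearest promoter changed from 0.243 to -0.0482 with a 250-bp window and to 0.34 with a 1000-bp window, and ranged from 0.16 to 0.22 over the replicate lists without single replicates.

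The number of sequences more frequent at members than at far intronic peaks was 2, and 1 with windows of 50 bp, 0 for the 3100 strongest peaks, 1 with members more than 1000 bp from a TSS, and 1 to 1 over the replicate lists without single replicates. Against promoter peaks it was 4, and 2, 1 and 2 under the same settings, and 2 to 3 over such replicate lists. Against weak regions it was 3, and 1 to 2 over such replicate lists. The number less frequent than at weak regions was 1. It was 2 with windows of 250 bp and 0 with 50 bp, the 3100 strongest peaks, 1 summit per merged region, non-coding starts left out, members more than 1000 bp from a TSS, and 0 to 0 over such replicate lists. The cause was not tested. Of the further values for single sequences, 34 lost their call, 83 kept it and none changed sign. No paired analysis was possible because there was 1 group. Depth is unknown, so what it limits could not be set.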
